A study of Homo sapiens with 18 samples.

Results

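The sites described here are 1620 stretches of chromatin in MDA-MB-231 cells, a widely used cell line from a triple-negative breast tumour, that carry trimethylated H3K4 together with trimethylated H3K27 and lack acetylated H3K27. They were selected on their measured values: H3K4me3 peaks on chromosomes 1 to 22, at least 1 kb wide, that share at least 1 bp with an H3K27me3 peak and 0 bp with every H3K27ac peak. They make up 6.18% of the 26199 autosomal H3K4me3 peaks of that width, out of 70139 autosomal H3K4me3 peaks of any width and 71597 in all. The study profiled chromatin by immunoprecipitation and sequencing (ChIP-seq) in 18 libraries that form 9 groups of 2. Parental MDA-MB-231 cells were profiled for H3K4me3, H3K27me3, ubiquitinated H2AK119 (H2AK119ub), KDM2B, MYC and ATF4, and cells that carry an empty vector were profiled for H3K27ac, with input libraries of both stocks. Each target came as 1 list of peaks that does not resolve its libraries, and the ATF4 and input libraries were not analysed here. No value below has a replicate error, read depth is unknown, and every fold is the authors' enrichment at the summit of a peak, taken from the strongest peak of a list that overlaps the site, and comparable only within its own list.

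H3K4me3 is laid down at promoters by COMPASS-type methyltransferases, and H3K27me3 is written by the Polycomb complex PRC2. Chromatin with both is called bivalent and was first described in embryonic stem cells at silent or barely transcribed regulators of development, whose promoters are rich in unmethylated CpG. H2AK119ub is the product of PRC1. KDM2B, a subunit of the variant complex PRC1.1, has a CXXC domain that binds unmethylated CpG DNA. MYC binds with MAX at active promoters, and H3K27ac occupies the same lysine as H3K27me3 on active promoters and enhancers.

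Promoters at the sites were mostly rich in CpG. The RefSeq promoter table (assembly GRCh38.p14, 250 bases before to 50 after a start) held 499 promoters of protein-coding genes with a start within 1 kb of a site. Those shown are from the genes with the highest H3K4me3 fold (TMEM229B, ZSWIM5 and TMEM266) and the highest KDM2B fold (ZDHHC11B and LOC105375947) among sites that hold the whole promoter, and they span the CpG content of the 9 promoters so ranked. Each is printed 5′ to 3′ on the strand of its gene, with every CpG in capitals. They lie at chr14:67515436-67515735 on the minus strand, chr1:45206556-45206855 on the minus strand, chr15:76059735-76060034 on the plus strand, chr5:784680-784979 on the minus strand and chr9:505504-505803 on the minus strand, in that order.
TMEM229B: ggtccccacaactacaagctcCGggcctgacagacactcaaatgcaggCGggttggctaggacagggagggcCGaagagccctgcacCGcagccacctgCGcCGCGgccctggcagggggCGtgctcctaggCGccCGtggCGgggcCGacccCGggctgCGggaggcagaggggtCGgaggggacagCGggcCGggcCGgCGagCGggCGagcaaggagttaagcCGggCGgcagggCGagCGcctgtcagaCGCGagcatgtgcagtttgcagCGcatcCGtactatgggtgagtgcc
ZSWIM5: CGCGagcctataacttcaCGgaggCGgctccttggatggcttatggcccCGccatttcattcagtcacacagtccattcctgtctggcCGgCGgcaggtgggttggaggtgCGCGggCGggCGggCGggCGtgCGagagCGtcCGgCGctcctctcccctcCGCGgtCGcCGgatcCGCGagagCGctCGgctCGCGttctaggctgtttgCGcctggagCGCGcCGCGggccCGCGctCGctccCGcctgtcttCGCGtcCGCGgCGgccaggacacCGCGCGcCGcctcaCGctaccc
TMEM266: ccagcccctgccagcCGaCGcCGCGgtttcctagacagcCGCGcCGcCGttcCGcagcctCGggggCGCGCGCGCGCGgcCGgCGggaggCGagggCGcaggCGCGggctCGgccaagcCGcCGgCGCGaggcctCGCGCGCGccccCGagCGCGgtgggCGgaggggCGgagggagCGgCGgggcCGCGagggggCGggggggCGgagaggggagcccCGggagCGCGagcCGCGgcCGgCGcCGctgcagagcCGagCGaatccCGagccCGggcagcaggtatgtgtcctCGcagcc
ZDHHC11B: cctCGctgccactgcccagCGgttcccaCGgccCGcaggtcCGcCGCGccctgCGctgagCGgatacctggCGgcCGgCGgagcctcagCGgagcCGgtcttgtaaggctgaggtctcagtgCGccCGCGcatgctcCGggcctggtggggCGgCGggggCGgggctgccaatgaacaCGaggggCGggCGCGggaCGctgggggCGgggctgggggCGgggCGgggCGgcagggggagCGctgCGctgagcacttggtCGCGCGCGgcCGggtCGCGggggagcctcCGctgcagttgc
LOC105375947: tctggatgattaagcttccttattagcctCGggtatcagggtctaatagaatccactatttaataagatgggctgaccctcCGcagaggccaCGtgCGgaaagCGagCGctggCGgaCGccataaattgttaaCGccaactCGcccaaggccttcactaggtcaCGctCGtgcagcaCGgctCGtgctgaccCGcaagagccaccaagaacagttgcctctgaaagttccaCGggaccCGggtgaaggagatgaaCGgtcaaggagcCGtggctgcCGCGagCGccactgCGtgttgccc
TMEM266 had 55 CpGs, ZSWIM5 46, ZDHHC11B 40, TMEM229B 29 and LOC105375947 23. The LOC105375947 promoter was the only one of these 5 with the E-box CACGTG, the preferred site of MYC with MAX, which it held in 1 copy.

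Over all 499 promoters at bivalent sites the median was 26 CpGs, with quartiles of 14 and 35. The same median was 21 over all 21156 promoters in the table, 26 at H3K4me3 peaks with H3K27ac and no H3K27me3, 17 at H3K4me3 peaks with neither mark, and 5 at promoters with no H3K4me3 peak of at least 1 kb. Promoters with fewer than 10 CpGs made up 16.6% at bivalent sites, 10.3% at acetylated peaks and 66.9% where H3K4me3 was missing. The ratio of observed to expected CpG had a median of 0.755 at bivalent sites and 0.841 at acetylated peaks. At bivalent sites that also overlapped KDM2B the median was 29 CpGs in 221 promoters, against 22 in 287 promoters at sites without KDM2B. A promoter near sites of both kinds counts in each. These medians are a description, with no test.

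**Figure D1:**
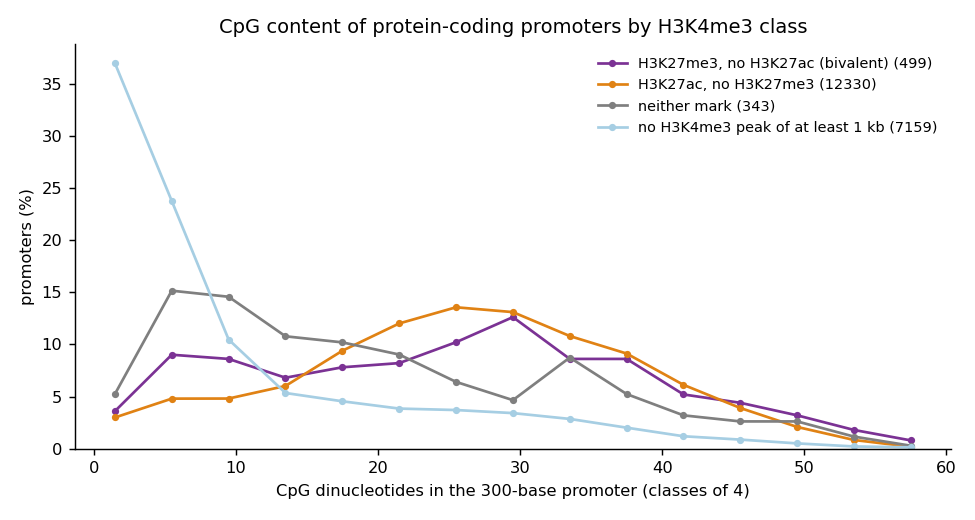
The plot of CpG content gives the percentage of protein-coding promoters (y axis) by number of CpGs in 300 bases (x axis, classes of 4 CpGs) for 499 promoters at bivalent sites, 12330 at acetylated H3K4me3 peaks, 343 at H3K4me3 peaks with neither mark and 7159 with no H3K4me3 peak of at least 1 kb. Bivalent promoters spread more widely than acetylated ones around the same median of 26, and promoters without H3K4me3 pile up at the low end.

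Motifs were counted in the same 300 bases on both strands. GGGCGG, a GC box, stood in 72.9% of bivalent promoters, 71.2% of acetylated ones and 56.6% of all. CCAAT, the box bound by NF-Y, stood in 25.7% of bivalent promoters, 35.0% of acetylated ones and 34.4% of all. CACGTG, which is contained in the looser pattern CANNTG, stood in 6.21%, 9.90% and 8.25%, and CANNTG in 59.9%, 59.3% and 64.9%. TATAAA stood in 6.41%, 5.25% and 9.51%. The cyclic AMP response element TGACGTCA stood in 1.40%, 3.13% and 2.31%, and the NRF1 motif in 0.802%, 2.24% and 1.5%. The CCAAT box, the E-box CACGTG, TGACGTCA and the NRF1 motif were each listed less often at bivalent than at acetylated promoters, and the GC box about as often. The bivalent shares of TGACGTCA and the NRF1 motif rest on very few of the 499 promoters. A match is a description of these letters only.

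The sites were narrower and weaker in H3K4me3 than acetylated peaks. Their median width was 1870 bp (range 1001 to 12114), against 3582 bp for the 20858 peaks with H3K27ac alone, 5903 bp for the 1371 with both marks and 1378 bp for the 2350 with neither. Their median H3K4me3 fold was 7.58 (range 1.63 to 49.9), against 23.9, 32.6 and 4.48. H3K27me3 peaks covered a median of 54.7% of a site, with quartiles of 27% and 84.5%, and had a median fold of 3.05 (range 1.62 to 7.63). These values belong to the choice of the sites and are given without a test.

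The label bivalent holds for the peak lists, and the way the marks lay together varied. H3K27me3 covered at least 90% of 321 sites (19.8%), 50% to 90% of 563, 10% to 50% of 645 and under 10% of 91. The H3K4me3 summit itself lay inside an H3K27me3 peak at 811 sites (50.1%). Both edges of 463 sites lay in H3K27me3, 1 edge of 688 and no edge of 469. At 113 sites both edges lay in H3K27me3 and the summit did not, so that the H3K4me3 summit sat in a gap flanked by H3K27me3. Peak lists from a population cannot tell the marks on 1 nucleosome from marks on different alleles or cells, and H3K27ac was measured in another stock of the line.

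Most sites lay in broad Polycomb domains. With H3K27me3 peaks less than 3 kb apart merged, 428 sites (26.4%) lay in domains of at least 100 kb, 827 (51.0%) in domains of 10 to 100 kb and 365 (22.5%) in shorter ones. The sites lay in 1326 domains. Counted once per site, the domain length had a median of 36.1 kb, and the longest domain spanned 1671 kb. A domain held at most 5 sites, and 529 sites shared a domain with another. The nearest H3K27ac peak was a median of 20927 bp away. It was nearer than 1 kb at 56 sites, nearer than 5 kb at 339 (20.9%) and at least 50 kb away at 446 (27.5%).

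**Figure D2:**
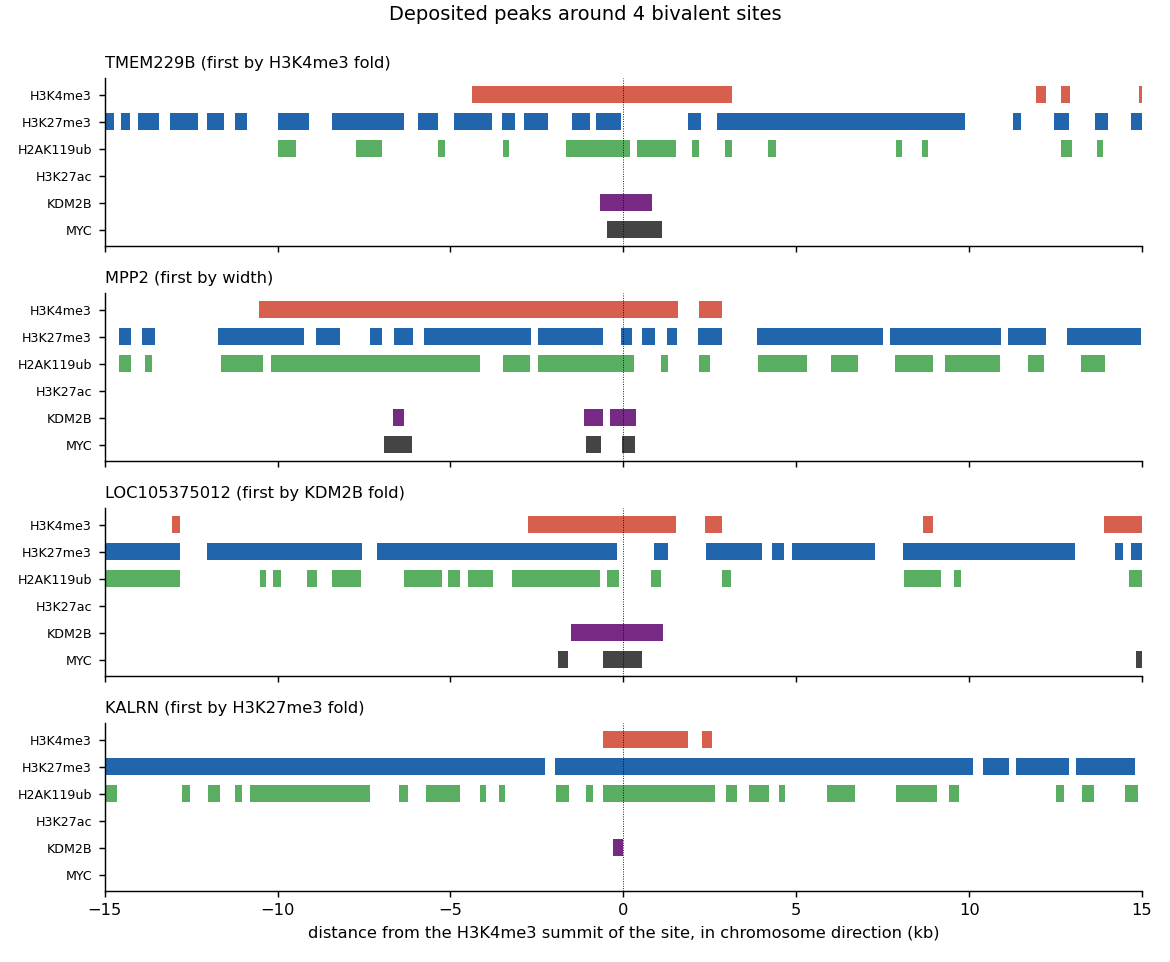
The map of 4 loci shows the deposited peaks of 6 targets (rows) by distance from the H3K4me3 summit of the site (x axis, kb, in chromosome direction) at the bivalent sites near protein-coding genes that ranked first, among such sites, by H3K4me3 fold (TMEM229B), width (MPP2), KDM2B fold (LOC105375012) and H3K27me3 fold (KALRN). KDM2B has a peak at or just beside the H3K4me3 summit at each locus, and at MPP2 another lies at -6.66 to -6.35 kb. H3K27me3 and H2AK119ub peaks run on to either side. H3K27ac has no peak in any of the windows.

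H2AK119ub was the companion mark at most of the sites. It overlapped 1412 of 1620 (87.2%, 95% Wilson interval 85.4% to 88.7%), where 36.4% of all 26199 H3K4me3 peaks overlapped it. Shares were 28.3% of acetylated peaks, 86.0% of peaks with both marks and 44.2% of peaks with neither. At the same H3K4me3 width and fold, in a logistic fit over all 26199 peaks, the odds of H2AK119ub at bivalent sites were 23 times those at acetylated peaks (95% interval 18.9 to 28.0; two-sided Wald test, n = 26199 peaks, Benjamini-Hochberg adjusted p = 4.49e-217). They were 9.28 times those at peaks with neither mark (7.53 to 11.4; n = 26199 peaks, adjusted p = 4.42e-96). Against peaks with both marks the ratio was 1.64 (1.29 to 2.09; n = 26199 peaks, adjusted p = 5.13e-05), but this contrast did not hold across settings. It was 0.313 with at least 50% of the peak inside H3K27me3, 1.39 with the H3K4me3 summit inside it and 1.11 without width and fold in the fit. Peaks are not replicates of a condition, and these p-values cover no variation between libraries.

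The 208 sites without an H2AK119ub peak were narrower and less covered by H3K27me3. Their median width was 1373 bp against 2037 bp at sites with the mark, H3K27me3 covered a median of 31.5% of them against 58.8%, and 9.62% overlapped KDM2B against 28.8%. All 141 sites of at least 5 kb overlapped H2AK119ub, against 78.0% of the 551 sites under 1.5 kb. Where present, H2AK119ub peaks covered a median of 66.0% of a site and had a median fold of 3.19.

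KDM2B overlapped 426 sites (26.3%, 24.2% to 28.5%), where 41.0% of all H3K4me3 peaks overlapped it. The share was 43.9% at acetylated peaks, 72.2% at peaks with both marks and 7.23% at peaks with neither, so in plain shares bivalent sites stood below acetylated ones. The order turned once peaks of like H3K4me3 were compared. At the same width and fold the odds of KDM2B at bivalent sites were 3.61 times those at acetylated peaks (95% interval 3.02 to 4.33; n = 26199 peaks, adjusted p = 7.83e-44 in the same Wald test). The ratio was 0.456 with neither width nor fold in the fit and 1.41 with width alone. Against peaks with neither mark the ratio was 2.48 (1.95 to 3.14; n = 26199 peaks, adjusted p = 9.57e-14), and against peaks with both marks 1.51 (1.2 to 1.90; n = 26199 peaks, adjusted p = 0.000444). The last of these was 0.137 with no covariates, 0.824 with width alone and 1.28, no longer past the threshold, with at least 50% of the peak inside H3K27me3.

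The difference from acetylated peaks lay at H3K4me3 folds of 8 and more. At a fold under 4, KDM2B overlapped 1.40% of bivalent sites and 1.89% of acetylated peaks, and at 4 to 8 it overlapped 6.08% and 4.83%, with intervals that overlapped each time. From 8 to 16 the shares were 33.4% (29.2% to 37.9%) and 10.4% (9.39% to 11.4%), and from 16 to 32 they were 71.9% (66.4% to 76.8%) and 37.8% (36.0% to 39.6%). At a fold of 32 or more KDM2B overlapped 38 of 39 bivalent sites (97.4%, 86.8% to 99.5%) and 83.3% of acetylated peaks (82.5% to 84.1%). The single exception, chr14:89024798-89028474 at the lncRNA gene LOC124903356, had an H3K4me3 fold of 32.5. Peaks with both marks stood near the bivalent sites, with intervals that overlapped theirs. Their KDM2B shares were 27.5% (21.0% to 35.2%) from 8 to 16, 69.1% (64.4% to 73.4%) from 16 to 32 and 92.8% (90.7% to 94.5%) at 32 or more. By width alone the bivalent share was the higher below 3 kb, at 6.17% against 3.30% from 1 to 1.5 kb, 13.9% against 6.99% from 1.5 to 2 kb and 28.0% against 18.2% from 2 to 3 kb, with intervals that did not overlap. From 3 to 5 kb the shares were 52.2% and 52.3%, and above 5 kb the bivalent share was the lower, at 74.5% against 82.4%.

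**Figure D3:**
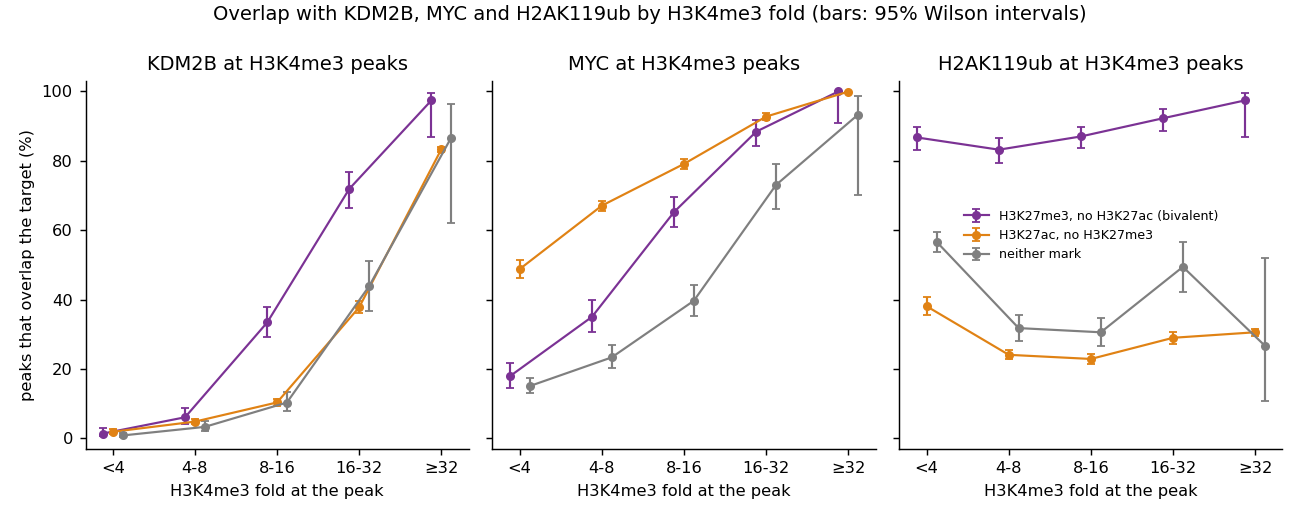
The plots of overlap by H3K4me3 fold give the percentage of H3K4me3 peaks (y axis) that overlap KDM2B, MYC or H2AK119ub in 5 classes of H3K4me3 fold (x axis), with 95% Wilson intervals as bars, for bivalent sites, acetylated peaks and peaks with neither mark. Among these classes, KDM2B rises with fold in each and is highest at bivalent sites from a fold of 8. MYC is highest at acetylated peaks up to a fold of 32, and H2AK119ub stays above 80% at bivalent sites throughout. Peaks with both marks are not drawn, and their H2AK119ub share was also above 80% in every class of fold.

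MYC overlapped 809 sites (49.9%, 47.5% to 52.4%), where 78.6% of all H3K4me3 peaks overlapped it. The share was 85.5% at acetylated peaks, 95.8% at peaks with both marks and 27.1% at peaks with neither. At the same width and fold the odds at bivalent sites were 0.283 times those at acetylated peaks (95% interval 0.247 to 0.324; n = 26199 peaks, adjusted p = 1.81e-75, Wald test of the logistic fit) and 0.196 times those at peaks with both marks (0.139 to 0.276; n = 26199 peaks, adjusted p = 2.26e-20). Against peaks with neither mark the ratio was 1.55 (1.29 to 1.85; n = 26199 peaks, adjusted p = 2.36e-06), but 0.846 with the lists cut to their 15000 highest folds and the broad marks kept whole. That cut also shortened the H3K27ac list, so peaks with only weaker H3K27ac could enter both classes. MYC overlapped 17.9% of bivalent sites and 48.8% of acetylated peaks at a fold under 4, 35.0% and 67.1% at 4 to 8, 65.3% and 79.1% at 8 to 16, and 88.4% and 92.8% at 16 to 32. At 32 or more it overlapped all 39 bivalent sites and 99.9% of acetylated peaks. Where MYC was present its median fold was 3.37 at bivalent sites and 8.29 at acetylated peaks.

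Most bivalent sites with KDM2B also had MYC, and the reverse did not hold. MYC overlapped 92.0% of the 426 sites with KDM2B and 34.9% of the 1194 without, and KDM2B overlapped 48.5% of the 809 sites with MYC. The sites with KDM2B were also wider, at a median of 3523 bp against 1612 bp, and stronger in H3K4me3, at a median fold of 17.9 against 5.38. Their median H3K27me3 fold was 3.39 against 2.95, and H3K27me3 covered a median of 56.6% against 53.8% of a site. The part of width and H3K4me3 in the shared occupancy was not tested.

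By combination, 616 sites (38.0%) had H2AK119ub alone, 390 (24.1%) H2AK119ub with MYC, 376 (23.2%) all of KDM2B, MYC and H2AK119ub, and 161 (9.94%) none. Another 30 had KDM2B with H2AK119ub, 27 MYC alone and 16 KDM2B with MYC. The median H3K4me3 fold was 4.21 at sites with H2AK119ub alone, 8.24 with MYC added and 18.4 with KDM2B as well. KDM2B stood alone at 4 sites. They were chr10:50990610-50991618 within 1 kb of the record of PRKG1 or inside it, chr12:97656298-97657343 with no protein-coding or lncRNA gene within 1 kb, chr15:57374669-57378183 at CGNL1 and chr8:19755571-19758465 at CSGALNACT1.

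The strongest H3K4me3 of any bivalent site near a protein-coding gene was at TMEM229B (chr14:67510753-67518272), with a fold of 49.9. The site was 7520 bp wide, 48.9% covered by H3K27me3, and had KDM2B at a fold of 5.49 and MYC at 9.95. MAPT, which encodes the microtubule-binding protein tau, followed at chr17:45893926-45899188 with an H3K4me3 fold of 48.4, KDM2B at 5.52 and MYC at 12.7. ZSWIM5 (40.0), the dynein adaptor BICDL1 (40.0), PALM2AKAP2 (39.9), CYFIP2 of the actin-regulating WAVE complex (39.9), TMEM266 (39.3) and the Arf GTPase regulator ADAP1 (37.8) came next by H3K4me3 fold. CXCR4, the receptor of the chemokine CXCL12, had an H3K4me3 fold of 37.7 over 4720 bp at chr2:136114920-136119639, with H3K27me3 on 15% of it, KDM2B at 5.71 and MYC at 4.94. SSTR2, a somatostatin receptor, had 37.5. All of these 10 sites overlapped KDM2B, MYC and H2AK119ub. At ADAP1 H3K27me3 covered only 3.62% of the site and H2AK119ub 82.9%.

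The widest sites near protein-coding genes reached well past a single promoter. MPP2, a membrane-associated guanylate kinase, had the widest at 12114 bp (chr17:43896870-43908983), with H3K27me3 on 73.3% of it and H2AK119ub on 81.9%. SAMD11 followed at 11841 bp. The shared site of FBXO2 and FBXO44, which encode F-box proteins of ubiquitin ligases, was 11393 bp wide, and that of CALML6 and TMEM52 was 10177 bp. The Notch ligand DLL4 had 9907 bp, the growth factor receptor FGFR3 9131 bp, YPEL4 8670 bp and the netrin receptor UNC5B 8392 bp. H3K27me3 covered under 6% of the FBXO2, CALML6 and FGFR3 sites (4.58%, 5.93% and 4.62%), so at these loci it overlapped only a small part of a wide H3K4me3 peak. H2AK119ub covered more of the same 3 sites, at 54.4%, 83.1% and 86.6%.

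The highest KDM2B fold at a site near a protein-coding gene was 18.6 at LOC105375012 (chr6:30463735-30468026), followed by ZDHHC11B, of the palmitoyltransferase family, at 8.79, the kinase MAST4 at 8.49 and the growth factor PDGFB at 8.02. LOC105375947 (7.41), the semaphorin SEMA5B (7.02), the activin subunit INHBB (6.91) and the immunoglobulin-family protein IGDCC3 (6.89) completed the first 8. These 8 sites were 4292 to 6146 bp wide. H3K27me3 covered 56.6% to 90.9% of all but INHBB, where it covered 17.5%. Over all 426 sites with KDM2B the median fold was 3.43. The highest, 26.3, lay at chr3:198079877-198082013 with no protein-coding or lncRNA gene within 1 kb.

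The highest MYC fold was 16.8 at IGSF9 (chr1:159942854-159947340), an immunoglobulin-family adhesion protein, where KDM2B had no peak. FBXO2 (13.0), the Snail-family repressor SNAI3 (13.0), MAPT (12.7), the neurotrophic ligand NRTN (12.6) and the endocytic receptor LRP2 (11.6) followed by MYC fold. The highest H3K27me3 fold at a site near a protein-coding gene was 7.47 at KALRN (chr3:124584217-124586688), a guanine nucleotide exchange factor, whose 2472-bp site lay wholly inside H3K27me3 and had KDM2B at 2.42 and no MYC peak. The site shared by the chemokine CXCL14 and SLC25A48 had an H3K27me3 fold of 7.12. The adenosine receptor ADORA1 (6.76), CIMIP2C (6.75), the forkhead factor FOXN4 (6.63) and the adrenergic receptor ADRA2B (6.60) came after it. MYC-rich sites thus had H3K4me3 folds of 14.9 to 48.4, while these H3K27me3-rich sites had 4.29 to 19.4.

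Around transcription starts the marks had different shapes. The plot along transcription uses the 329 bivalent sites that hold protein-coding starts of a single strand, with the start nearest the summit as 0. H3K27me3 peaks covered 34.3% of these starts, 46.8% of positions 1 kb upstream and 55.9% of positions 1 kb downstream, a dip at the start itself. KDM2B and MYC were the reverse, with KDM2B at 24.6% of starts and 3.95% and 7.90% at 1 kb upstream and downstream, and MYC at 41.3%, 7.90% and 14.3%. H2AK119ub covered 43.8% of starts and was more frequent downstream, at 61.4% of positions 1 kb after the start against 42.9% of those 1 kb before it. H3K4me3 leaned the same way, at 83.3% against 69.3%. At 6975 acetylated peaks H2AK119ub stood at 2.12% of starts, 4.73% at 1 kb upstream and 9.28% at 1 kb downstream. No test was made of these shapes.

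**Figure D4:**
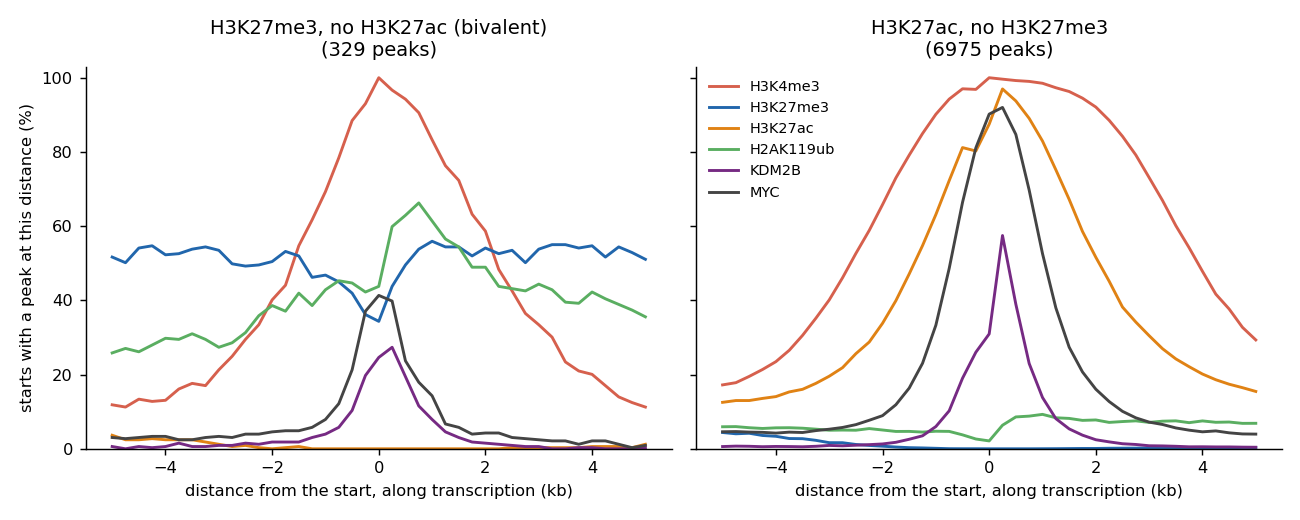
The plot along transcription gives the percentage of sites (y axis) with a peak of each of 6 targets at each distance from a protein-coding start (x axis, kb, positive downstream), for 329 bivalent sites on the left and 6975 acetylated H3K4me3 peaks on the right. H3K27me3 dips to 34.3% at bivalent starts while KDM2B and MYC are centred there, and H2AK119ub is higher after the start than before it.

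Many sites were away from the gene starts and ends used here. A protein-coding start (or, for genes outside the promoter table, an end of the gene record) lay within 1 kb of 563 sites (34.8%, 32.5% to 37.1%), against 47.3% of acetylated peaks, 62.4% of peaks with both marks and 16.6% of peaks with neither. A further 116 sites (7.16%) were near a lncRNA gene alone, 397 (24.5%) lay inside a protein-coding record away from its start, and 544 (33.6%) lay elsewhere. Sites inside other kinds of gene record were not counted apart. KDM2B overlapped 43.3% of the sites near protein-coding genes, 30.2% of those near lncRNA genes alone, 18.6% inside records and 13.4% elsewhere. Median widths in the same order were 3003, 2196, 1662 and 1503 bp and median H3K4me3 folds 12.1, 9.08, 5.21 and 5.52. H2AK119ub overlapped 93.8%, 90.5%, 91.2% and 76.7%. The part of width and fold in the order of the KDM2B shares was not tested.

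The sites belonged to 571 of 19126 protein-coding genes (2.99%), or 4.46% of the 12804 with any H3K4me3 peak of at least 1 kb. The lists below were chosen with earlier results of these data known. Their counts are read beside those 2 percentages, without a set test. Of the 571 genes, 94 (16.5%) also had an H3K4me3 peak with H3K27ac, with or without H3K27me3, within 1 kb of a start or end. That start or end could be the one at the bivalent site. TMEM229B, PALM2AKAP2, ADAP1 and MAST4 were among the 94. Of 17795 lncRNA genes 222 had a bivalent site.

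Ion channels and transmitter receptors of neurons had the highest share of the 14 lists. Of 98 such genes 16 had a bivalent site (16.3%), which is 50% of the 32 with an H3K4me3 peak of at least 1 kb. The potassium channel gene KCNH3 had an H3K4me3 fold of 35.9 over 6975 bp, with H3K27me3 on 1.84% of it and KDM2B at 6.23. KCNQ3, which carries the neuronal M-current, had an H3K4me3 fold of 27.5 and the sodium channel subunit SCN4B 20.4, both with KDM2B and MYC. The calcium channel CACNA1G (20.2), the GABA receptor subunit GABRB2 (8.75) and the glutamate receptor GRM4 (7.96) were also in the set by H3K4me3 fold, and GRM4 had an H3K27me3 fold of 6.47. Further members were KCNJ5, KCNK12, KCNN3, KCND3, KCNK4, KCNK9 and KCNN1. All 16 overlapped H2AK119ub, as did 93.8% of all bivalent sites near protein-coding genes and every gene with a site in the other lists.

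Secreted signals of development followed. Of 60 WNT, BMP, FGF and hedgehog genes 7 had a site (11.7%, or 20% of the 35 with a wide H3K4me3 peak): INHBB, WNT4, IHH, FGF19, CHRD, WNT10A and GDF7. WNT4, a ligand of mammary and gonadal development, had neighbouring sites on chromosome 1 with H3K4me3 folds of 22 and 17.2, of which only the first overlapped KDM2B (3.91) and MYC (3.65). The hedgehog ligand IHH had an H3K4me3 fold of 13.8, with H3K27me3 on 93.3% of its 3702-bp site and KDM2B at 4.78. The growth factor FGF19 had 10.5 and no KDM2B peak. Of 61 axon guidance and adhesion genes 6 had a site (9.84%, or 18.2% of 33), and these were UNC5B, ROBO3, UNC5A, EPHB3, EFNA2 and EFNB3. UNC5B had an H3K4me3 fold of 27.7 and an H3K27me3 fold of 6.17 together with KDM2B at 6.60. The netrin receptor UNC5A (11.6), the Slit receptor ROBO3 (12.6) and the ephrin receptor EPHB3 (10.2) had MYC and no KDM2B peak.

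Developmental transcription factors, the classical bivalent genes of stem cells, had bivalent sites at 5.13% to 8.70% of the members of 4 lists, beside the 2.99% of all genes. These shares rest on only 2 to 8 genes per list, and their difference from the share of all genes was not tested. Most members of these lists either had no H3K4me3 peak of at least 1 kb or had an acetylated one. Of 39 HOX genes 2 had a site (15.4% of the 13 with such a peak), HOXC11 with an H3K4me3 fold of 8.95 and HOXA13 with 8.44, neither with KDM2B or MYC, while 26 had no H3K4me3 peak of at least 1 kb and 9 had an acetylated one. HOXA13 lay 524 bp outside its site and also had an acetylated peak. Of 92 other homeobox and paired factors 8 had a site (8.70%, or 23.5% of the 34 with a wide H3K4me3 peak) and 58 had no H3K4me3 peak of that width. The strongest were LHX6 (33.0), BARX2 (25.6), POU3F1 (25.2) and EN2 (15.3), and the others were GSX1, SIX3, LMX1B and TLX2. Of 50 forkhead, SOX, GATA and T-box factors 4 had a site (8%, or 16.7% of 24), a count that was 1 with at least 50% of the peak inside H3K27me3, where that of the HOX genes was 0. SOX5 had an H3K4me3 fold of 36.4 with H3K27me3 on 6.40% of its site, and SOX2, the pluripotency and neural progenitor factor, had 20.8 with an H3K27me3 fold of 5.53 on 78.9% of it. FOXB1 (18.1) and the vascular factor SOX18 (6.03) had no KDM2B peak. Of 65 bHLH and zinc finger factors 4 had a site (6.15%, or 16% of 25): OLIG1 (28.1), ASCL2 (24.1), NEUROG2 (11.5) and HAND1 (8.17). HAND1, a factor of heart development, lay wholly inside H3K27me3 and had neither KDM2B nor MYC, and the other 3 had both.

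A few genes of other cell identities also had a site, in counts too small to read as a result. Of 48 luminal and epithelial genes 5 had a site (10.4%, or 15.6% of the 32 with a wide H3K4me3 peak), a count that was 1 with at least 50% of the peak inside H3K27me3. At the same limit the haematopoietic and amino acid lists also had 1 each. The epithelial splicing regulator ESRP1 had an H3K4me3 fold of 26.4, the epithelial repressor OVOL2 21.4, MAL2 of apical transport 17.5, the prolactin receptor PRLR 15.9 and the protease inhibitor SPINT1 12.1. All but PRLR overlapped KDM2B. None of 30 mesenchymal genes had a site, and 18 of them had an acetylated H3K4me3 peak. Of 37 haematopoietic genes 2 had a site (5.41%, or 12.5% of the 16 with a wide H3K4me3 peak). They were CD4, whose site is shared with GPR162 (25.5), and CD3E (11.1), both without KDM2B. Of 46 genes of amino acid synthesis and transport 2 had a site (4.35%) and 35 had an acetylated peak. Of the 41 with a wide H3K4me3 peak the share was 4.88%, near the 4.46% of all such genes. The 2 with a site were PRODH, which breaks down proline, with an H3K4me3 fold of 31.0 and KDM2B at 6.25, and the liver-type glutaminase GLS2, with 26.9 and 3.40. None of 33 Polycomb subunit genes, 68 ribosomal protein genes or 31 proteasome genes had a site. At the 2.99% of all genes, lists this short, like the mesenchymal one, would hold few sites. Their lack of sites is therefore not read as a result.

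**Figure D5:**
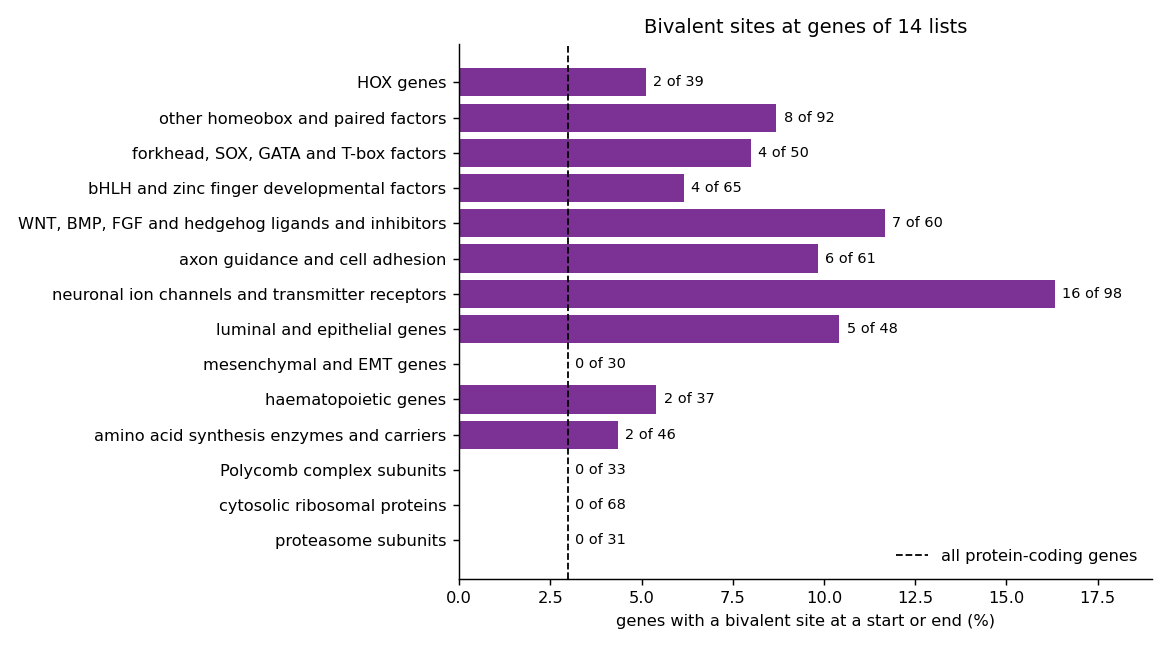
The bar plot of gene lists gives the percentage of each list's genes with a bivalent site at a start or end (x axis) for 14 lists (y axis), with counts beside the bars and a dashed line at the 2.99% of all protein-coding genes. Neuronal channels and receptors reach 16.3%. Mesenchymal, Polycomb, ribosomal and proteasome genes have none, and lists of their size would hold few at the dashed line.

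Few small RNA genes lay in the sites. Of 1461 miRNA hairpins 3 lay in the 1620 bivalent sites, against 281 in the far more numerous 20858 acetylated peaks. The 3 in bivalent sites were MIR3131 in the IHH site, MIR3663 at chr10:117165153-117168699 and MIR152 at chr17:48036421-48039122. Their mature forms, from RefSeq, are shown with the seed (bases 2 to 8) in capitals, and no seed is shared.
hsa-miR-3131: uCGAGGACugguggaagggccuu
hsa-miR-3663-3p: uGAGCACCacacaggccgggcgc
hsa-miR-3663-5p: gCUGGUCUgcguggugcucgg
hsa-miR-152-3p: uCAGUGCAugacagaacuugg
hsa-miR-152-5p: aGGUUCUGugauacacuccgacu
The MIR152 site had an H3K4me3 fold of 11.9 and neither KDM2B nor MYC, whereas the MIR3663 site had KDM2B at 3.20 and MYC at 2.99. Of 439 tRNA genes 7 lay in bivalent sites and 176 in acetylated peaks. Per peak the shares were close, with a tRNA gene in 0.432% of bivalent sites and 0.551% of acetylated peaks. Only 2 of the 7 sites with a tRNA gene overlapped H2AK119ub, where 87.2% of all sites did, and 1 overlapped KDM2B. These sites were singled out after their values were seen.

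Sites were mostly isolated. With gaps of up to 20 kb allowed within a run, 1173 sites (72.4%) had no neighbour, and 125 (7.72%) lay in 38 runs of at least 3. The longest run, 7 sites at chr11:1534648-1590372 around the phosphatase gene DUSP8, had H3K4me3 folds from 2.56 to 37.3, H2AK119ub at all 7 and KDM2B at 2. Some of these 7 peaks lay less than 1 kb apart, so the run holds fewer separate stretches if such peaks are merged. The next run, 6 sites at chr6:28771658-28819481, had KDM2B at none and H2AK119ub at 2. Its strongest H3K4me3 folds, 14.8 and 9.53, were at the alanine tRNA genes TRA-TGC5-1 and TRA-TGC7-1. By chromosome, the share of wide H3K4me3 peaks that were bivalent ran from 2.34% (1.58% to 3.46%) on chromosome 4 to 9.13% (7.73% to 10.8%) on chromosome 11, with 8.34% on chromosome 17 and 8.19% on chromosome 19.

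At the edges of the selection, the narrowest sites inside were 1001 bp wide, on chromosomes 10, 2 and 20, with H3K4me3 folds of 2.87, 2.32 and 5.64. Just outside were peaks of 996, 999 and 999 bp on chromosomes 4, 17 and 8, with folds of 6.50, 1.80 and 15.1. Width thus did not separate strong from weak peaks at that limit. The least H3K27me3 shared was 9 bp, at the PRR20G site on chromosome 3, and the least H3K27ac that kept a peak out was 184 bp, on chromosome 2. Under the width limit lay 4229 further H3K4me3 peaks with H3K27me3 and no H3K27ac.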

How the data were processed

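ChIP-seq peak lists of 6 targets were used, each with 1 list per target. The submitters' processing notes name Trim Galore, Bowtie2 (2.4.5), SAMtools (1.6), MACS2 (2.2.7.1) and the build hg38. The control and any pooling of libraries are not given in the sources used here. The deposited peaks have the narrow-peak layout, in which a broad domain can be split into many peaks. The deposited files hold a score, the authors' fold (a linear ratio of signal to background), and the −log10 q-value of the authors' peak caller. The deposited summit is given as a position within the peak. These values were used only within a list, and read depth is unknown.

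The members and gene lists were chosen with earlier results of these data known. Wide H3K4me3 peaks on chromosomes 1 to 22 were classed by 1-bp overlap with H3K27me3 and H3K27ac: bivalent (H3K27me3 only), acetylated (H3K27ac only), both or neither. Overlap with KDM2B, MYC and H2AK119ub was fitted over all 26199 peaks by logistic regression (statsmodels 0.14.6) on class, ln width and ln H3K4me3 fold. Standard errors were clustered on 2503 bins of 1 Mb, and p-values were two-sided Wald tests with Benjamini-Hochberg adjustment over 9 odds ratios, at 0.05. The fit was run on data simulated with its own covariate form and a constant odds ratio, which does not test that form on the real peaks. Wilson intervals (95%) cover counting error only.

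Gene positions are RefSeq, GRCh38.p14. Starts came from the promoter table for 15101 of 19126 protein-coding genes, and both ends of the record were used for the other 4025, with a window of 1 kb. Named sites near protein-coding genes are the 10 of highest H3K4me3 fold, the 8 widest, the 8 of highest KDM2B fold, the 6 of highest MYC fold and the 6 of highest H3K27me3 fold, with up to 4 members of each gene list by H3K4me3 fold and all members of small counts. Other sites, and the further members of lists, were named after their values were seen. Some members of a gene list are counted but not reported here by name. Alternatives are given in the closing section.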

Additional observations from a re-analysis of the deposited data

Results flagged for a closer look

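Chromosome X was outside the selection. There, 18 of 646 H3K4me3 peaks of at least 1 kb (2.79%, 95% Wilson interval 1.77% to 4.36%) overlapped H3K27me3 and no H3K27ac, of which 12 overlapped H2AK119ub and 1 overlapped KDM2B. The share on chromosomes 1 to 22 was 6.18%. On chromosome Y none of 17 did.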

How the results depend on the processing

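Of 232 alternative values, 187 kept their direction and side of the threshold or stayed within the set margin. The odds ratios of H2AK119ub, KDM2B and MYC against acetylated peaks kept their direction in every alternative except KDM2B with no covariates, which gave 0.456; with width and fold kept in the fit they ranged over 16.4 to 54.7, 3.42 to 5.40 and 0.188 to 0.310. Contrasts with the other classes held less well. KDM2B against peaks with both marks gave 0.137 with no covariates, 0.824 with ln width alone and 1.28 with at least 50% of the peak inside H3K27me3. H2AK119ub against peaks with both marks gave 0.313 at that 50% limit, 1.39 with the H3K4me3 summit inside H3K27me3, 1.11 with no covariates and 1.13 with ln fold alone. MYC against peaks with neither mark gave 0.846 with the lists cut to their 15000 highest folds and the broad marks kept whole. That cut also shortened the H3K27ac list and so changed which peaks fell in each class. The fits with ln width or ln fold alone, and the settings with gene starts alone or both ends of every gene record, were chosen after seeing the data.

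The number of sites was 3072 at a width limit of 500 bp, 759 at 2 kb, 884 with at least 50% inside H3K27me3 and 811 with the summit inside. In the same order of limits, KDM2B shares were 14.8% and 46.0% for the widths and 22.8% for the summit; MYC shares were 32.7%, 72.2%, 46.0% and 41.6%; and H2AK119ub shares were 80.4%, 94.6%, 92.3% and 90.01%. At q under 1e-05 the KDM2B, MYC and H2AK119ub shares were 21.4%, 41.6% and 74.2%. The cut to the 15000 highest folds also shortened the H3K27ac list, so peaks with only weaker H3K27ac counted as lacking it. It gave a different set of 1201 sites, in which KDM2B stood at 69.7% and H2AK119ub at 90.6%. With H3K4me3 peaks within 1 kb merged MYC stood at 54.3%. The share near a protein-coding start or end was 23.6% at 500 bp width, 52.0% at 2 kb, 38.3% at the q limit, 63.3% for the 15000 highest folds, 32.4% for the summit, 32.5% and 40.9% with gene windows of 500 and 2500 bp, and 25.3% with starts alone. HOX genes fell to 1 with the 500-bp window and 0 at 50% coverage; the forkhead, luminal, haematopoietic and amino acid lists each fell to 1 at 50% coverage; ribosomal genes reached 1 with the 2500-bp window. The cause of each change was not tested.

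No paired analysis was possible because each target has 1 list that does not resolve its libraries, and for the same reason no library was left out in turn. Depth is unknown, and a missing peak does not show that a target is absent.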
